A study of Mus musculus with 21 samples.

Results

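The genes described here are those that duplicate the genome in S phase and those that open it: origin licensing factors, the MCM helicase, the sliding clamp and its loader, polymerases, enzymes that supply deoxynucleotides, and the E-type cyclins. They were followed in RAW 264.7 cells, a mouse line derived from a virus-induced tumour, which resembles macrophages and divides in culture. A list of 39 genes was matched to probe sets that the array annotation ties to exactly 1 gene symbol. The brightest probe set of a gene, by its mean over all arrays, stands for it. This gave 38 of the 39 genes, among 12393 genes measured in all, and Gins2 is not analysed here. The 38 genes had 71 such probe sets, and 23 genes had more than 1.

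Cells attached overnight and were then kept for 2 h with amorphous silica in medium without serum. The 10 nm particles were given at 5, 20 or 50 µg/ml and the 500 nm particles at 250, 500 or 1000 µg/ml, or low, mid and high for each size, and untreated cells served as controls. There were 3 arrays in each of 7 groups, or 21 arrays. The labels do not tell whether arrays of a group stem from separate cultures, so a p-value covers only the spread between arrays, which may be technical. They also do not tell whether untreated cells lost their serum, so serum withdrawal and particles cannot be told apart, and they name different culture plates for growth and for treatment. Nominal surface area, taken as dose over diameter, was 1, 4 and 10 in units of the lowest for the 10 nm doses and 1, 2 and 4 for the 500 nm doses.

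Before a cell copies its DNA, the origin recognition complex, Cdc6 and Cdt1 load the MCM ring onto origins in G1. Cyclin E with its kinase and the Cdc7 kinase then fire the origins: Cdc45 and the GINS complex join the ring and open the helix. Polymerase alpha lays down primers, the RFC complex loads the PCNA clamp, and polymerases delta and epsilon extend the strands. Many of these genes are transcribed at the border of G1 and S by E2F factors, which the retinoblastoma protein family holds back until cyclin-dependent kinases release them. The signal of a probe set is an average over all cells of a culture, so fewer cells in S phase and less RNA per cell cannot be told apart.

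RefSeq promoters (250 bases before to 50 after the transcript start, mouse build GRCm38.p6) were at hand for 33 of the 39 genes; Rfc2, Ccne2, Pole, Gins1, Gins2 and Mcm4 are named only. They were searched on both strands for the E2F-type letters TTTGGCGC, TTTCCCGC, TTTCGCGC and TTTGCCGC, whose matches may overlap. Of the 33 genes, 12 (36.4%) held a match, against 704 of the 27025 genes in the table (2.6%) and 402 of the 9888 of them that are on the array (4.07%). The matching genes were Orc1, Cdc6, Cdt1, Mcm3, Mcm5, Mcm6, Mcm7, Rfc3, Pola1, Pold1, Lig1 and Uhrf1. Stretches of 5 of these promoters follow, read 5′ to 3′ on the strand of the gene, with the matching letters in capitals. Cdc6 (chr11:98907973-98908060, plus strand), Pola1 (chrX:93632246-93632333, minus strand) and Rfc3 (chr5:151651179-151651258, minus strand) are shown because they are the genes with a match that changed at a high dose.
Cdc6: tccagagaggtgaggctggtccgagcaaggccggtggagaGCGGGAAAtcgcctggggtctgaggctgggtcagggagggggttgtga
Pola1: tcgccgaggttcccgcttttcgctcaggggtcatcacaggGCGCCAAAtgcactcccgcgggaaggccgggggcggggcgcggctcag
Rfc3: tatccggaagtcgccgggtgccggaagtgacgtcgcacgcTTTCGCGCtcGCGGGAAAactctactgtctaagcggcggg
Mcm5 (chr8:75109316-75109407, plus strand) and Mcm6 (chr1:128359705-128359855, minus strand) are shown as genes of the helicase ring that hold overlapping matches and were not called at any dose.
Mcm5: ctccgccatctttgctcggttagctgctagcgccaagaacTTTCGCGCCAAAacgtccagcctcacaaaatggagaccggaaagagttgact
Mcm6: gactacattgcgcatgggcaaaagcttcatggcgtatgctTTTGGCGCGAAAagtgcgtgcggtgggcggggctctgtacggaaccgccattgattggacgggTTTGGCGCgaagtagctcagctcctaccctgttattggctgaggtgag
Of the genes called at either high dose that had a promoter in the table, 3 of 11 held a match, as did 9 of the 22 that were not called. A match is a description of the letters, and binding was not measured.

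The labelled cell type was checked against marker genes by rank of mean signal, a rough guide since probe sets differ in brightness for equal RNA. Csf1r, Lyz2, Cd68 and Cd14 lay at or above the 98.4th percentile of all genes, while Itgam and Mrc1 were at the 44.4th and 12.5th, and no T cell, B cell, fibroblast or epithelial marker on the array passed the 47.8th. Adgre1 and Fcgr1, also on the macrophage list, were measured, but their ranks are not given here. By the same rank, 37 of the 38 replication probe sets were brighter than the median one, and that of Tyms was dim, at the 25.4th percentile. Values below are log2 signal, and samples are compared only within a probe set. Arrays of one group correlated at 0.983 to 0.998 across genes. In every group the replicate 3 array had the narrowest spread of values. The SD was 2.46 for 10 nm high dose replicate 3 and 2.51 for 500 nm high dose replicate 3, against 2.60 to 2.67 for the 3 untreated arrays. The mean of the replication genes was 9.47 on 10 nm high dose replicate 3 and 9.63 to 9.94 on the other 20 arrays.

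A gene was called where limma's p, adjusted by Benjamini-Hochberg over all 12393 genes, was under 0.05, and only such a gene is said to have risen or fallen. The fit held no term for the replicate number, and several counts with such a term, most of them higher, stand at the end. At the 10 nm high dose 10 of the 38 genes fell and 0 rose. Over the whole table, 12.6% of genes fell and 7.58% rose there, 20.2% in all. Limma's unadjusted p was under 0.05 for 20 lower and 0 higher replication genes, and for 2303 lower and 2073 higher of all 12393 genes. The median difference was -0.27, against 0.04 over all genes, and 37 of the 38 values were below 0, as were 5715 of all 12393. With 500 nm silica, 8 fell and 1 rose at the high dose (10% and 5.31% of all genes), with a median of -0.19, against 0.07 over all genes. Of the 14 genes called at either high dose, 5 were called at both: Tyms, Ccne2, Cdc6, Rpa2 and Pola1. The shares of all genes called at either or at both are not given here. All these comparisons share the same 3 untreated arrays.

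**Figure D1:**
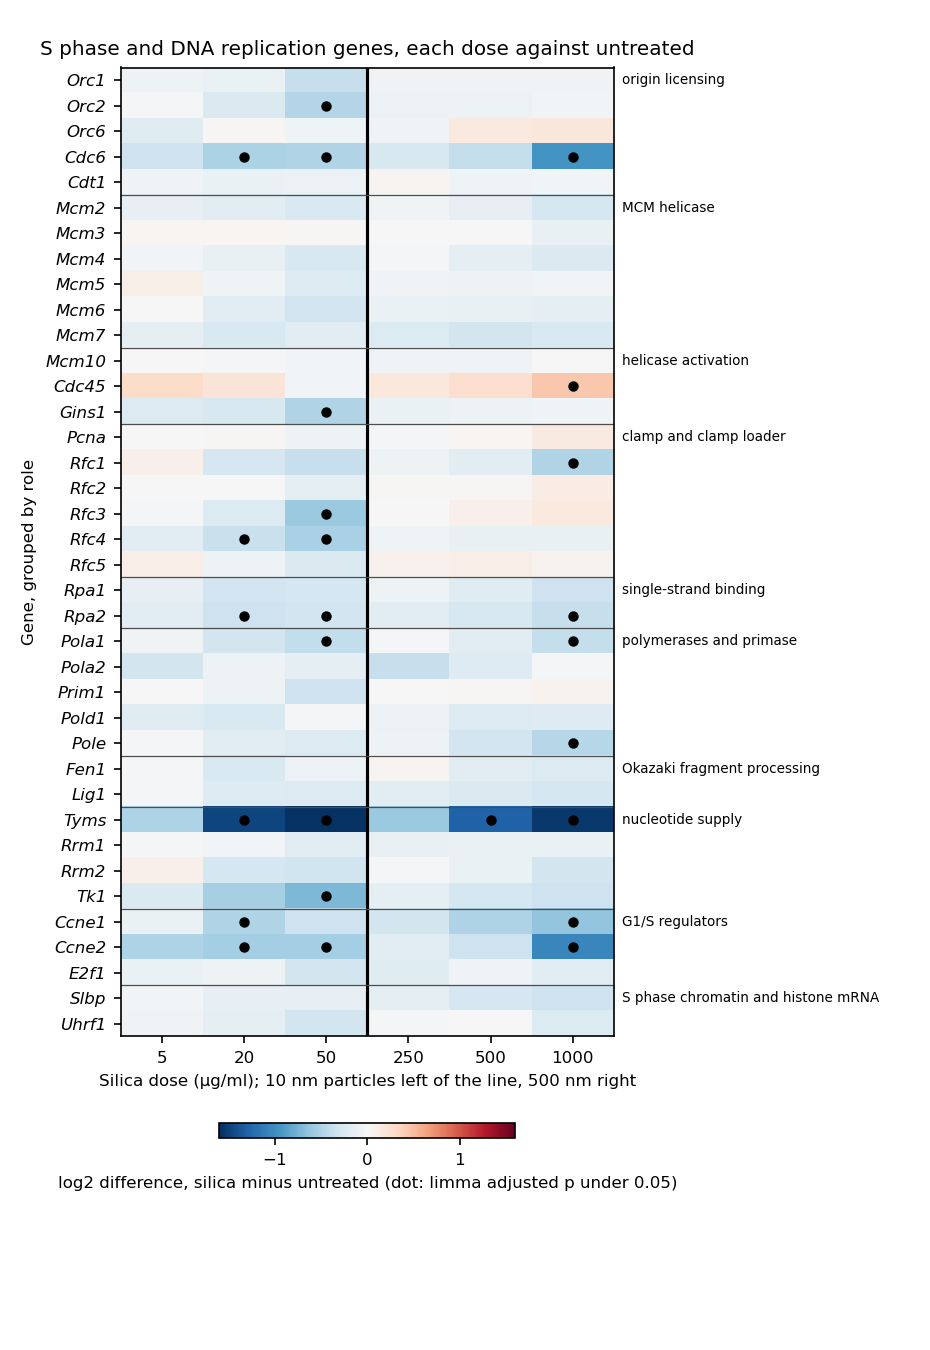
Log2 difference from untreated cells for the 38 replication genes (rows, grouped by role) at each dose in µg/ml (columns), with 10 nm silica left of the vertical line and 500 nm silica right of it; blue is lower, red is higher, and a dot marks an adjusted p under 0.05. The dots gather at the high doses (10 at 50 µg/ml of 10 nm and 9 at 1000 µg/ml of 500 nm silica), and Tyms is the darkest row.

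The size of these shares depended on brightness and on how the arrays were scaled. Bright genes were lower as a class. Of the 37 replication genes left when Tyms is set aside, 24.3% fell at the 10 nm high dose and the median was -0.26, against 18.5% of all 4856 genes at least as bright and a median of -0.14. With 500 nm silica the shares were 18.9% of the 37 genes and 14.4% of the 4856, with medians of -0.17 and -0.05. The median of the 38 genes at the 10 nm high dose was -0.27 as deposited, -0.18 after quantile normalization, -0.16 with each array centred on its median, and 0.01 with each array also scaled to one SD. With that last scaling 18 of the 38 values were below 0. The same scalings put the median of all genes at 0.04, 0.01, 0.14 and 0.14. At the 500 nm high dose the medians were -0.19, -0.18, -0.10 and 0.02 for the replication genes and 0.07, 0.04, 0.17 and 0.15 for all genes. The sign of the list's median thus turned with the scaling, while that median stayed below the median of all genes under each scaling. Genes of like brightness were compared with the list only in the values as deposited. The list is described below by its single genes.

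**Figure D2:**
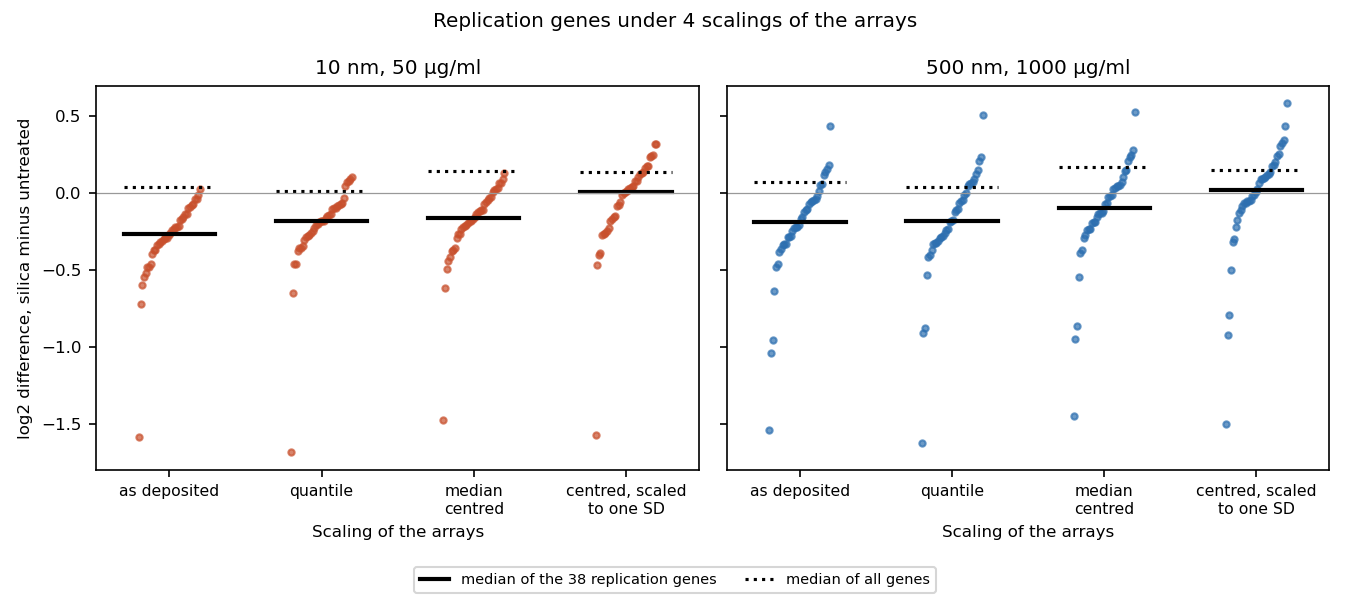
Log2 differences from untreated cells of the 38 replication genes (points) at the 10 nm high dose (left) and the 500 nm high dose (right) under 4 scalings of the arrays; solid bars are the median of the replication genes and dotted bars that of all genes. The solid bars lie below the dotted bars under each scaling, and move to 0.01 and 0.02 when arrays are scaled to one SD, while Tyms stays the lowest point.

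Under all 4 scalings the calls at the 10 nm high dose held for Orc2, Gins1, Tyms and Tk1, and those at the 500 nm high dose for Cdc6, Cdc45, Rfc1, Pole, Tyms, Ccne1 and Ccne2. Leaving out each of the 6 arrays of a comparison in turn kept the calls of Orc2, Cdc6, Gins1, Rfc4, Pola1 and Tyms at the 10 nm high dose and of Cdc6, Pole, Tyms, Ccne1 and Ccne2 at the 500 nm high dose. In a fit on the 6 arrays compared alone, Tyms was the one gene called at the 10 nm high dose, and Cdc6, Tyms and Ccne2 were called at the 500 nm high dose. Scaled to one SD, 3 genes were higher at the 500 nm high dose (Cdc45, Pcna and Rfc2) and 1 at the 10 nm high dose (Pcna). The shares of all genes that kept or gained a call in these settings are not given here, so these shifts cannot be read as particular to the list.

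Tyms, thymidylate synthase, makes thymidylate for DNA and was called at 4 of the 6 doses by a dim probe set. It read 3.99, 4.09 and 3.72 at the 10 nm high dose and 4.01, 4.03 and 3.89 at the 500 nm high dose. Untreated arrays read 5.59, 5.54 and 5.42. All 6 high dose arrays lay below all 3 untreated arrays. Tyms fell by 1.58 on the log2 scale at the 10 nm high dose (SE 0.15, adjusted p = 3.17e-07) and by 1.54 at the 500 nm high dose (SE 0.15, adjusted p = 4.72e-07). It was the one gene of the list called at both mid doses, by -1.47 ± 0.15 at 20 µg/ml of 10 nm (adjusted p = 9.1e-07) and -1.30 ± 0.15 at 500 µg/ml of 500 nm silica (adjusted p = 1.63e-05). At the low doses its arrays also lay below the untreated ones, with differences of -0.50 (adjusted p = 0.214) and -0.59 (adjusted p = 0.123) that were not called. A pair of still dimmer Tyms probe sets gave 0.27 and -0.00 at the 10 nm high dose and 0.21 and 0.04 at the 500 nm high dose, none of them called. Whether Tyms changed, and by how much, thus rests on the probe set used, and which probe sets follow the Tyms transcript was not tested.

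Of the other 3 genes of nucleotide supply, 1 was called. Tk1, the thymidine kinase of the salvage route, read 10.03, 9.97 and 9.24 at the 10 nm high dose. Untreated arrays read 10.75, 10.67 and 10.00. It fell by 0.72 on the log2 scale (SE 0.21, adjusted p = 0.0188), but the groups overlapped, since untreated replicate 3 lay below 10 nm high dose replicate 1. At each replicate number the 10 nm array was the lower one, although the labels do not pair the arrays. The call was lost without untreated replicate 1 (adjusted p = 0.0913), untreated replicate 2 (0.0813) or 10 nm high dose replicate 3 (0.122). At the 500 nm high dose Tk1 read 10.18, 10.30 and 9.93, with a difference of -0.34 ± 0.21 from untreated cells (adjusted p = 0.293). Rrm1 and Rrm2 encode the large and small subunits of ribonucleotide reductase and were not called; Rrm2 differed by -0.32 ± 0.15 and -0.29 ± 0.15 at the high doses, 10 nm first. A second, dimmer Rrm2 probe set passed at the 10 nm high dose (-0.39 ± 0.08, adjusted p = 0.00319 over all probe sets).

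The cyclin E genes, whose products drive the entry into S phase with the kinase Cdk2, both fell at the 500 nm high dose. Ccne2 read 7.60, 7.60 and 7.54 at the 10 nm high dose and 7.11, 7.36 and 6.78 at the 500 nm high dose. Untreated arrays read 7.91, 7.96 and 8.50. The 500 nm arrays lay lowest and the untreated arrays highest, with no overlap among the 3 groups. Ccne2 was 2.06-fold lower at the 500 nm high dose (-1.04 ± 0.16, adjusted p = 0.000118) and fell by 0.54 at the 10 nm high dose (SE 0.16, adjusted p = 0.0209). With 10 nm silica the dose series was flat, at 7.63 ± 0.15, 7.58 ± 0.08 and 7.58 ± 0.03 from low to high (SD, n = 3 each), and only the mid and high doses passed. Ccne1 read 8.13, 7.98 and 8.11 at the 10 nm high dose and 7.92, 7.65 and 7.73 at the 500 nm high dose. Untreated arrays read 8.21, 8.32 and 8.68. It fell by 0.64 at the 500 nm high dose (SE 0.14, adjusted p = 0.00314) and by 0.48 at the 10 nm mid dose (SE 0.14, adjusted p = 0.0298), and differed by -0.33 at the 10 nm high dose (adjusted p = 0.0978). Untreated replicate 3 was the highest array for both cyclins, and without it the adjusted p at the 10 nm high dose became 0.0959 for Ccne2 and at the 10 nm mid dose 0.159 for Ccne1 and 0.173 for Ccne2. The Ccne2 call at the 10 nm high dose was also lost without replicate 3 of that dose (0.0584). E2f1, a transcription factor of this class of genes, differed by -0.29 ± 0.20 and -0.17 ± 0.20 and was not called.

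**Figure D3:**
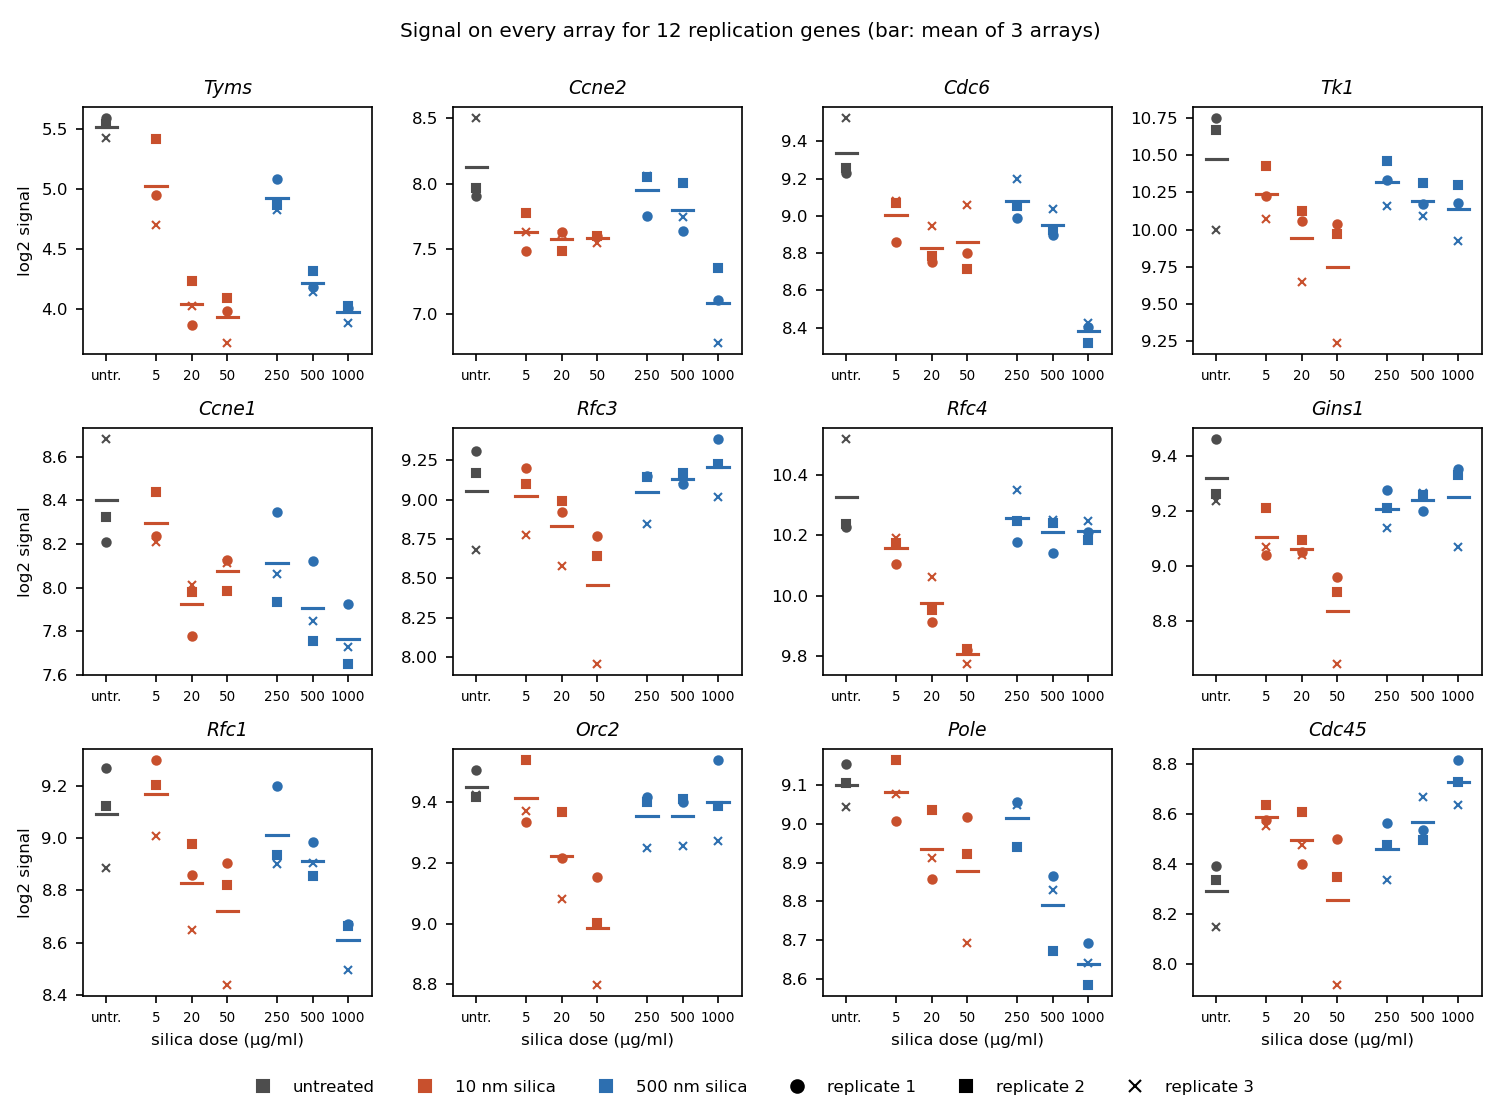
Log2 signal on every array for 12 replication genes: untreated cells at the left of each panel, then 10 nm silica (5, 20 and 50 µg/ml) and 500 nm silica (250, 500 and 1000 µg/ml); symbols mark the replicate number and bars the mean of 3 arrays. Tyms steps down between the low and the mid dose of each size, Ccne2 and Cdc6 are lowest at 1000 µg/ml of 500 nm silica, and 10 nm high dose replicate 3 is the lowest point for Tyms, Tk1, Rfc3, Rfc4, Gins1, Rfc1, Orc2 and Cdc45.

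Among the licensing genes, Cdc6, the ATPase that loads the MCM ring, fell with both sizes. It read 8.80, 8.71 and 9.06 at the 10 nm high dose and 8.40, 8.32 and 8.43 at the 500 nm high dose. Untreated arrays read 9.23, 9.26 and 9.53. No array of one group overlapped those of another. Cdc6 was 1.94-fold lower at the 500 nm high dose (-0.95 ± 0.11, adjusted p = 5.27e-06) and fell by 0.48 at the 10 nm high dose (SE 0.11, adjusted p = 0.00476) and 0.51 at the 10 nm mid dose (SE 0.11, adjusted p = 0.00422). Orc2, a subunit of the origin recognition complex, fell at the 10 nm high dose alone among the 6 doses: it read 9.15, 9.0 and 8.80 there and 9.54, 9.39 and 9.27 at the 500 nm high dose. Untreated arrays read 9.51, 9.42 and 9.42. The 10 nm arrays lay below all others of these groups (-0.46 ± 0.11, adjusted p = 0.00544), and the 500 nm difference was -0.05 ± 0.11 (adjusted p = 0.785). Of the other Orc2 probe sets, 1 gave -0.31 and the dimmest 0.09 at the 10 nm high dose, neither called, and with the probe sets averaged the adjusted p at that dose was 0.102. Orc1, the subunit that binds and hydrolyses ATP, lay just outside the threshold at the 10 nm high dose (-0.37 ± 0.13, adjusted p = 0.0518). Cdt1 and Orc6 were not called, with values of -0.09 and -0.07 at the 10 nm high dose and -0.04 and 0.18 at the 500 nm high dose.

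The genes of the MCM ring itself, Mcm2 to Mcm7, were not called at any of the 6 doses by the probe sets used in the values as deposited. After quantile normalization Mcm6 was called at the 10 nm high dose (-0.31, adjusted p = 0.0406) and Mcm7 at the 500 nm high dose (-0.29, adjusted p = 0.0491). Their differences as deposited ran from -0.31 (Mcm6) to 0.02 (Mcm3) at the 10 nm high dose and from -0.28 (Mcm2) to -0.05 (Mcm5) at the 500 nm high dose. Mcm7 had the smallest p, at the 500 nm high dose (-0.25 ± 0.09, adjusted p = 0.0755). For Mcm2, Mcm4, Mcm6 and Mcm7 all 3 arrays of each high dose lay below all 3 untreated arrays. Of all genes, 16.4% did so at the 10 nm and 15.9% at the 500 nm high dose. The share that did so at both doses, which use the same untreated arrays, is not given here. Other, dimmer probe sets of Mcm4 and Mcm6 passed at the 500 nm high dose over all probe sets (-0.41 ± 0.14, adjusted p = 0.0495, and -0.43 ± 0.13, adjusted p = 0.0273), and the same Mcm4 probe set gave 0.06 at the 10 nm high dose.

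Of the 3 measured factors that turn the ring into a moving helicase, 1 fell and 1 rose. Gins1, a subunit of the GINS complex, read 8.96, 8.91 and 8.65 at the 10 nm high dose and 9.35, 9.33 and 9.07 at the 500 nm high dose. Untreated arrays read 9.46, 9.26 and 9.24. It fell at the 10 nm high dose, where its arrays lay below all others of these groups (-0.48 ± 0.10, adjusted p = 0.00265), and differed by -0.07 ± 0.10 at the 500 nm high dose (adjusted p = 0.681). Cdc45, which bridges the ring and GINS, was the one gene of the list that rose. It read 8.50, 8.35 and 7.92 at the 10 nm high dose and 8.82, 8.73 and 8.64 at the 500 nm high dose. Untreated arrays read 8.39, 8.34 and 8.15. The 500 nm arrays lay above the rest (0.43 ± 0.12, adjusted p = 0.0234), while the 10 nm arrays overlapped the untreated ones (-0.04 ± 0.12, adjusted p = 0.842). The Cdc45 call was lost without untreated replicate 3 (adjusted p = 0.0924), 500 nm high dose replicate 1 (0.0847) or replicate 2 (0.0523). Mcm10, which joins the fork at the same step, gave -0.04 ± 0.09 and 0.01 ± 0.09, 10 nm first.

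Of the clamp loader genes, Rfc4 fell at the mid and high doses of 10 nm silica. It read 9.82, 9.82 and 9.77 at the 10 nm high dose and 10.21, 10.18 and 10.25 at the 500 nm high dose. Untreated arrays read 10.23, 10.24 and 10.52. The 10 nm arrays lay below all others (-0.52 ± 0.09, adjusted p = 0.000434), the 10 nm mid dose gave -0.35 ± 0.09 (adjusted p = 0.015), and the 500 nm high dose gave -0.11 ± 0.09 (adjusted p = 0.424). The mid dose call was lost without untreated replicate 3 (0.0850), mid dose replicate 1 (0.0804) or replicate 2 (0.0517), and the high dose call of Rfc4 with arrays scaled to one SD (0.129).

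Rfc3 and Rfc1 were called at 1 dose each. Rfc3 read 8.77, 8.64 and 7.96 at the 10 nm high dose and 9.38, 9.23 and 9.01 at the 500 nm high dose. Untreated arrays read 9.31, 9.17 and 8.68, each above the 10 nm high dose array of its replicate number. It fell by 0.60 at the 10 nm high dose (SE 0.19, adjusted p = 0.037), but the groups overlapped, and the call was lost without untreated replicate 1 (0.146), untreated replicate 2 (0.116) or 10 nm high dose replicate 3 (0.227). Rfc1, the large subunit, read 8.90, 8.82 and 8.44 at the 10 nm high dose and 8.67, 8.67 and 8.50 at the 500 nm high dose. Untreated arrays read 9.27, 9.12 and 8.88, each above both silica arrays of its replicate number. It fell at the 500 nm high dose (-0.48 ± 0.14, adjusted p = 0.0205), a call lost without untreated replicate 1 (0.0918), untreated replicate 2 (0.0596) or 500 nm high dose replicate 3 (0.0870), and differed by -0.37 ± 0.14 at the 10 nm high dose (adjusted p = 0.0593), where it overlapped the untreated arrays. Rfc2, Rfc5 and the clamp gene Pcna were not called; Rfc5 gave -0.23 ± 0.13 and 0.06 ± 0.13, and Pcna -0.08 ± 0.09 and 0.14 ± 0.09, 10 nm first.

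Of the 5 polymerase and primase genes, Pola1, the catalytic subunit of polymerase alpha, fell with both sizes. It read 8.95, 8.85 and 8.80 at the 10 nm high dose and 9.03, 8.91 and 8.68 at the 500 nm high dose, against 9.16, 9.24 and 9.39 in untreated cells, and both silica groups lay below the untreated arrays. The differences were -0.40 ± 0.10 (adjusted p = 0.00999) and -0.39 ± 0.10 (adjusted p = 0.0137), 10 nm first. The 500 nm call of Pola1 was lost without untreated replicate 3 (0.0615) or 500 nm high dose replicate 3 (0.0913). Pole, the catalytic subunit of the leading strand polymerase epsilon, read 9.02, 8.92 and 8.69 at the 10 nm high dose and 8.69, 8.58 and 8.64 at the 500 nm high dose. Untreated arrays read 9.15, 9.10 and 9.04. It fell at the 500 nm high dose (-0.46 ± 0.10, adjusted p = 0.00241), with all arrays of both silica groups below the untreated ones, and gave -0.22 ± 0.10 at the 10 nm high dose (adjusted p = 0.109). Prim1, the primase that starts each primer, gave -0.34 ± 0.15 and 0.05 ± 0.15 and was not called, nor were Pola2 and the polymerase delta gene Pold1.

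Rpa2, a subunit of the complex that coats single-stranded DNA, fell at 3 doses: by 0.33 at the 10 nm mid dose (SE 0.10, adjusted p = 0.0327), 0.30 at the 10 nm high dose (SE 0.10, adjusted p = 0.0352) and 0.37 at the 500 nm high dose (SE 0.10, adjusted p = 0.0143). It read 9.72, 9.67 and 9.45 at the 10 nm high dose and 9.61, 9.52 and 9.52 at the 500 nm high dose, against 10.03, 9.93 and 9.78 in untreated cells, without overlap. Single arrays ended these calls. Without untreated replicate 1 the adjusted p was 0.134 at the 10 nm mid, 0.136 at the 10 nm high and 0.0681 at the 500 nm high dose, and without 10 nm high dose replicate 3 it was 0.170 at that dose. The other arrays whose absence ended a 10 nm call were untreated replicate 2 (0.0848 mid and 0.0913 high), mid dose replicates 1, 2 and 3 (0.121, 0.0536 and 0.0905) and high dose replicate 2 (0.0531). With its probe sets averaged, Rpa2 was called at none of the 3 doses (adjusted p = 0.672, 0.292 and 0.64). Rpa1, the large subunit, gave -0.28 ± 0.13 and -0.33 ± 0.13 and was not called, but a second Rpa1 probe set passed at both high doses over all probe sets (-0.29 ± 0.07, adjusted p = 0.012, and -0.28 ± 0.07, adjusted p = 0.0152). Fen1 and Lig1 trim and seal Okazaki fragments. Lig1 gave -0.28 ± 0.10 at the 500 nm high dose (adjusted p = 0.059) and was called there after quantile normalization (-0.26, adjusted p = 0.0322). A dimmer Fen1 probe set passed at the 10 nm high dose (-0.30 ± 0.10, adjusted p = 0.0378). Slbp, which binds the end of histone mRNA, and Uhrf1, which reads DNA methylation behind the fork, were not called, with Slbp at -0.13 ± 0.14 and -0.33 ± 0.14 and Uhrf1 at -0.29 ± 0.31 and -0.22 ± 0.31.

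**Figure D4:**
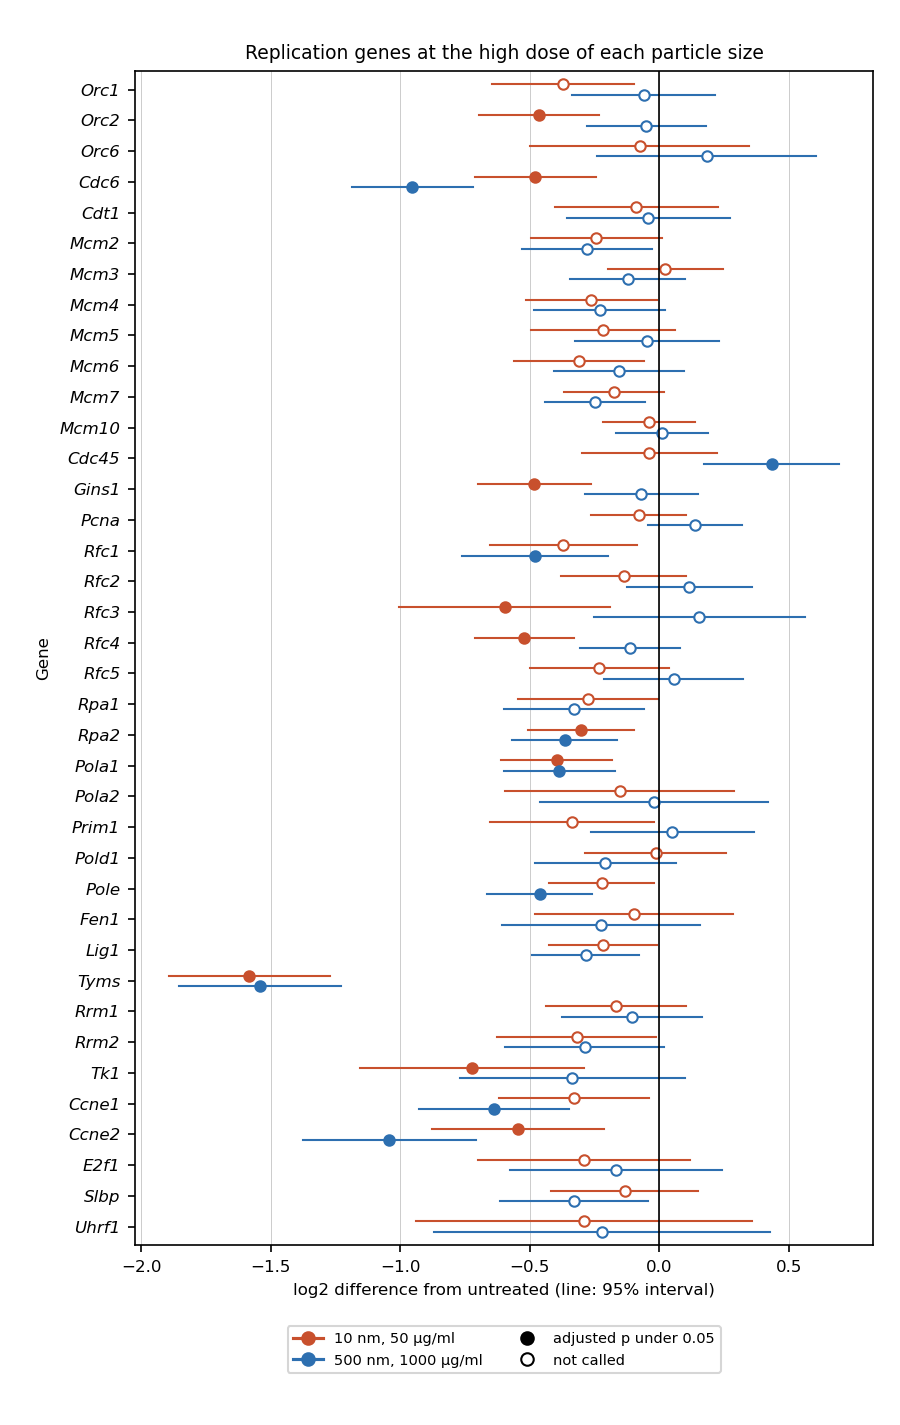
Log2 difference from untreated cells of each of the 38 replication genes at the 10 nm high dose (red) and the 500 nm high dose (blue); lines are 95% intervals of the fit, and filled points have an adjusted p under 0.05. Orc2, Gins1, Rfc3, Rfc4 and Tk1 are filled in red only, Cdc45, Rfc1, Pole and Ccne1 in blue only, and Cdc6 and Ccne2 reach further left in blue.

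At the lower doses fewer genes changed. At the 10 nm mid dose 6 fell and 0 rose (7.39% and 3.22% of all genes), namely Tyms, Cdc6, Ccne1, Ccne2, Rfc4 and Rpa2. Of these, Cdc6 and Tyms held without each single array, and Tyms alone under all 4 scalings. Beside untreated replicate 3, the Ccne1 call rested on mid dose replicates 1 (0.149) and 2 (0.0543), and the Ccne2 call on replicates 1 (0.0694), 2 (0.10) and 3 (0.0624). At the 500 nm mid dose Tyms alone fell and 0 rose (1.51% and 1.26% of all genes, 2.77% together). At the low doses limma called 0 of 38 genes with either size (0.767% of all genes called at the 10 nm low dose and 0.428% at the 500 nm low dose, there 0.0807% lower and 0.347% higher). Unadjusted p was under 0.05 for 3 lower and 1 higher gene with 10 nm and for 4 lower and 0 higher genes with 500 nm silica. Of all 12393 genes, 377 were lower and 489 higher by that measure with 10 nm, and 390 and 348 with 500 nm silica. With array weights in limma 6 and 1 genes fell at these doses, 10 nm first, where 9.84% and 2.99% of all genes were called. The medians were -0.05 and -0.18 at the low and mid 10 nm doses and -0.07 and -0.12 at the low and mid 500 nm doses.

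Arrays were also counted without a test. All 3 arrays lay below all 3 untreated arrays for 6, 14 and 16 of the 38 genes at the low, mid and high 10 nm doses, where this held for 4.44%, 15.4% and 16.4% of all genes. With 500 nm silica the counts were 6, 11 and 15, beside 5.96%, 9.93% and 15.9% of all genes. All 3 arrays lay above the untreated ones for 1, 1 and 0 genes with 10 nm (7.3%, 11.5% and 16.9% of all genes) and 0, 1 and 2 with 500 nm silica (6.34%, 7.75% and 15.2%), the last being Cdc45 and Pcna.

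Within a size, a line was fitted to the 3 doses on a log2 scale; the slope was negative for 5 called genes and positive for 0 called genes in each series. With 10 nm silica these were Tyms (-0.34 ± 0.04 per doubling of dose, adjusted p = 3.84e-05), Rfc1, Orc2, Rfc4 and Pola1, where 9.05% of all genes had a called negative slope and 3.13% a positive one. With 500 nm silica they were Tyms (-0.47 ± 0.07, adjusted p = 0.000289), Ccne2 (-0.43 ± 0.08, adjusted p = 0.00126), Cdc6 (-0.35 ± 0.06, adjusted p = 0.000342), Pole and Pola1 (5.37% and 2.83% of all genes, 8.2% together). Without 10 nm high dose replicate 3 the slopes of Rfc1 (0.141), Orc2 (0.0670) and Pola1 (0.0938) were no longer called. Without 10 nm low dose replicate 2 those of Rfc1 (0.112), Orc2 (0.0953), Rfc4 (0.0621) and Pola1 (0.0997) were not. Other single arrays ended the calls of Rfc1 (10 nm low dose replicate 1, 0.132), Rfc4 (10 nm low dose replicate 3, 0.0545) and Pola1 (10 nm low dose replicate 1, 0.137, and high dose replicate 2, 0.0834). In the 500 nm series the Pola1 call was lost without any of the low dose replicates 1, 2 and 3 (0.139, 0.0791 and 0.0530) or the high dose replicates 2 and 3 (0.0608 and 0.178), and the Pole call without low dose replicate 1 or 3 (0.0763 and 0.0761) or high dose replicate 2 or 3 (0.0694 and 0.0525). Under all 4 scalings the called slopes were those of Tyms with 10 nm and of Tyms, Ccne2 and Cdc6 with 500 nm silica; the 500 nm slope of Tyms was lost with its probe sets averaged (0.116). A test for any difference among the 7 groups called 10 of the 38 genes, beside 16.2% of all genes: Tyms, Cdc6, Ccne2, Rfc4, Pole, Pola1, Ccne1, Gins1, Rfc1 and Orc2.

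The sizes were compared directly in 3 pairs of doses. At the low doses, which match in nominal area, limma called 0 of 38 genes (0.0888% of all genes, 0.00807% lower and 0.0807% higher). Its unadjusted p was under 0.05 for 0 of the 38, and for 138 lower and 333 higher of all 12393 genes. Array weights called 1. All 3 arrays of 10 nm silica lay above those of 500 nm silica for 1 gene and below them for 0 (6.54% and 3.72% of all genes). The 95% intervals of the 38 differences all lay within -0.67 to 0.63. The mid dose of 10 nm and the high dose of 500 nm silica also match, and there 1 gene was called, higher with 10 nm silica (2.85% of all genes, 1.81% higher and 1.04% lower). Cdc6 was higher with 10 nm silica, at 8.75, 8.79 and 8.94, against 8.40, 8.32 and 8.43 with 500 nm silica (0.44 ± 0.11, adjusted p = 0.0323). That call was lost without any one of the 6 arrays, at adjusted p from 0.0667 to 0.163. All 3 arrays lay below those of the other size for 3 genes and above them for 4 (9.83% and 8.66% of all genes). At the high doses, which differ in nominal area, 6 genes were called (7.52% of all genes), 5 of them lower with 10 nm silica (4.15%) and 1 higher (3.37%). Cdc6 was higher with 10 nm silica (0.47 ± 0.11, adjusted p = 0.0112). The 5 lower genes were Rfc3 (-0.75 ± 0.19, adjusted p = 0.0214), Cdc45 (-0.47 ± 0.12, adjusted p = 0.024), Orc2 (-0.41 ± 0.11, adjusted p = 0.0244), Gins1 (-0.41 ± 0.10, adjusted p = 0.0177) and Rfc4 (-0.41 ± 0.09, adjusted p = 0.00836). All 3 arrays of one size lay beyond all 3 of the other for each of these 6 genes; over the list this held for 10 genes lower and 6 higher with 10 nm silica, where 12.2% and 9.15% of all genes did so. Rfc4 alone stayed called without each single array. The adjusted p without 10 nm high dose replicate 3 was 0.0657 for Cdc6, 0.136 for Cdc45, 0.126 for Orc2, 0.0982 for Gins1 and 0.125 for Rfc3. Without 500 nm high dose replicate 1 it was 0.109 for Cdc45, 0.135 for Orc2, 0.0934 for Gins1 and 0.108 for Rfc3. Without 500 nm high dose replicate 2 it was 0.0558 for Cdc6, 0.0732 for Cdc45, 0.0701 for Orc2, 0.0857 for Gins1 and 0.0698 for Rfc3, and without 10 nm high dose replicate 2 it was 0.0604 for Orc2. A fit on the 6 arrays compared alone called 0 of these genes. Rfc4 was not called with arrays scaled to one SD, while the other 5 were called under all 4 scalings.

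Several genes that fell with both sizes gave no called difference between the high doses. For Tyms the difference was -0.04 (95% interval -0.35 to 0.27), for Pola1 -0.01 (-0.22 to 0.20) and for Rpa2 0.06 (-0.14 to 0.27). Ccne2 was not called either, with 0.50 ± 0.16 (adjusted p = 0.0659) and an interval from 0.16 to 0.83, and was called with arrays scaled to one SD (adjusted p = 0.0486) or quantile normalized (adjusted p = 0.0396), with 0.53 each. Pole, at 0.24 as deposited (adjusted p = 0.163), was called after quantile normalization (0.30, adjusted p = 0.0365).

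Some genes had other probe sets that did not follow the one used, none of them called unless said above. At the 10 nm high dose the sign was opposite for other probe sets of E2f1 (0.03), Mcm3 (-0.04), Mcm4 (0.06), Orc2 (0.09) and Pola2 (0.22). At the 500 nm high dose it was opposite for Cdt1 (0.10 and 0.06), E2f1 (0.02), Mcm3 (0.06 and 0.21), Mcm10 (-0.46), Prim1 (-0.19) and Rrm1 (0.06). Of all 33 other probe sets, Tyms and Orc2 had those that differed by over 0.5 from the one used. At the 10 nm high dose second probe sets of called genes gave -0.50 for Rfc3, -0.37 for Rfc4 and -0.43 for Rpa2, and at the 500 nm high dose they gave -0.38 and -0.39 for Rfc1 and -0.00 for Rpa2.

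A wider list of 86 genes of replication and of G1/S control, was also tested, and 69 of them were measured. At the 10 nm high dose 29 fell and 2 rose and the median was -0.32, where 12.6% of all genes fell, 7.58% rose and their median was 0.04. At the 500 nm high dose 21 fell and 3 rose and the median was -0.19, beside 10% and 5.31% of all genes and a median of 0.07. The median stayed below 0 under all 4 scalings. With arrays scaled to one SD it was -0.11 and -0.03, 10 nm first, with 19 and 15 genes lower and 3 and 6 higher. In a fit on the 6 arrays compared alone 14 fell and 2 rose at the 10 nm high dose, and 15 fell and 1 rose at the 500 nm high dose. The shares of all genes called under that scaling and in that fit are not given here. At the mid doses 24 fell and 2 rose with 10 nm and 2 fell and 1 rose with 500 nm silica, beside 7.39% lower and 3.22% higher of all genes with 10 nm and 1.51% and 1.26% with 500 nm silica. At the low doses 1 rose and 0 fell with 10 nm (0.605% and 0.161% of all genes). Limma called 0 with 500 nm silica (0.347% of all genes higher and 0.0807% lower). There 1 higher and 6 lower genes had an unadjusted p under 0.05, as had 348 and 390 of all 12393 genes. The list was chosen with earlier results of these data known, so its counts, and those by role below, describe it and do not test it. They stand beside the shares of all genes, not of genes of like brightness.

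Regulators of G1 exit gave the largest values, in opposite directions. Cdkn1a, the kinase inhibitor p21, read 11.20, 11.17 and 11.15 at the 10 nm high dose and 11.00, 10.96 and 11.11 at the 500 nm high dose. Untreated arrays read 9.86, 9.98 and 9.70. It rose at every dose except the lowest 500 nm dose, by 0.62, 1.24 and 1.33 with 10 nm from low to high and by 0.63 and 1.17 at the mid and high 500 nm doses (SE 0.09 each). A second Cdkn1a probe set gave 1.38 and 1.64 at the high doses. Cdkn1b, the related inhibitor p27, fell (-0.92 ± 0.16 and -0.98 ± 0.16, 10 nm first), although a dimmer probe set of it gave 0.04 and -0.07. Rbl2, the retinoblastoma family member p130, fell by 1.29 (SE 0.22, adjusted p = 0.000388) and 1.25 (SE 0.22, adjusted p = 0.000599), with -0.76 and -0.25 in a dimmer probe set. The inhibitor gene Cdkn2c fell at the 10 nm high dose (-0.88 ± 0.10) and gave -0.27 ± 0.10 at the 500 nm high dose (adjusted p = 0.0722), a difference between the sizes that was itself called (-0.61 ± 0.10, adjusted p = 0.000477). That difference was not tried under the other settings. In all, 9 of the 20 measured genes of this group fell and 2 rose at the 10 nm high dose, and 7 fell and 2 rose at the 500 nm high dose (12.6% and 7.58%, and 10% and 5.31%, of all genes).

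Of 8 genes that fire origins and steady the fork, 6 fell at the 10 nm and 5 at the 500 nm high dose and 0 rose at either, where 12.6% and 10% of all genes fell. They included Wdhd1, which ties polymerase alpha to the helicase (-0.92 ± 0.12 and -0.89 ± 0.12), and Cdc7, the kinase that fires origins (-0.80 ± 0.12 and -0.58 ± 0.12). Timeless, which protects the fork (-0.66 ± 0.12 and -0.65 ± 0.12), and Topbp1, which helps to load Cdc45 (-0.37 ± 0.11 and -0.50 ± 0.11), fell as well. The Topbp1 call at the 10 nm high dose was lost without untreated replicate 2 (0.0618) or 3 (0.0732) or 10 nm high dose replicate 1 (0.0669) or 2 (0.0859), and under every scaling but the deposited one; its 500 nm call was lost with arrays scaled to one SD (0.145). The 500 nm call of Cdc7 was lost with its probe sets averaged (0.173). Dimmer probe sets gave -0.33 and -0.06 for Cdc7 and -0.13 and -0.53 for Timeless. Among licensing genes, Orc5 fell (-0.77 ± 0.11 and -0.62 ± 0.11), as did Gmnn, which encodes the Cdt1 inhibitor geminin (-0.58 ± 0.08 and -0.42 ± 0.08, the second lost when arrays were scaled to one SD). A fit on the compared arrays alone ended the 10 nm call of Topbp1 (0.144) and the 500 nm call of Gmnn (0.0656).

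Of 10 genes of replication stress and checkpoints, 6 fell at the 10 nm and 5 at the 500 nm high dose and 0 rose (12.6% and 10% of all genes fell). Wee1, the kinase that restrains the entry into mitosis, fell with both sizes (-1.05 ± 0.16 and -1.06 ± 0.16), as did the exonuclease gene Exo1 (-1.0 ± 0.11 and -0.73 ± 0.11) and the mismatch repair gene Msh6 (-0.48 ± 0.12 and -0.76 ± 0.12). Msh6 was not called at the 10 nm high dose without its replicate 3 (0.0584) or with arrays scaled to one SD (0.0845), and Exo1 was not called at the 500 nm high dose with its probe sets averaged (0.0552). Rad1, a subunit of the checkpoint clamp, fell at the 10 nm high dose (-1.10 ± 0.23) and gave -0.17 ± 0.23 at the 500 nm high dose, with a called difference between the sizes (-0.93 ± 0.23, adjusted p = 0.0159). That difference was not tried under the other settings. With its probe set of largest SD Exo1 was called at neither high dose (0.0861 and 0.369, 10 nm first). In a fit on the compared arrays alone the 10 nm calls of Rad1 (0.0598) and Msh6 (0.0886) were lost.

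Of 11 further polymerase and clamp genes, 3 fell at the 10 nm high dose, and 1 fell and 1 rose at the 500 nm high dose. Of all genes 12.6% fell at the 10 nm high dose and 10% at the 500 nm high dose, so the 500 nm count was near the share of all genes. The nuclease and helicase gene Dna2 fell with both sizes (-0.63 ± 0.15 and -0.72 ± 0.15, and -1.57 and -2.00 in a dimmer probe set). Among the small subunits of polymerase epsilon, Pole2 fell at the 10 nm high dose (-0.52 ± 0.10, and -0.16 ± 0.10 with 500 nm) and so did Pole3 (-0.51 ± 0.10, and -0.27 ± 0.10 with 500 nm). Pole4 rose at the 500 nm high dose (0.45 ± 0.12, and 0.09 ± 0.12 with 10 nm). The Pole4 call was lost without untreated replicate 3 (0.0695) and with its second, dimmer probe set, which gave -0.35 at the 10 nm and 0.11 at the 500 nm high dose (adjusted p = 0.765). The calls of Pole2 and Pole3 were lost with arrays scaled to one SD. A fit on the compared arrays alone ended the 10 nm calls of Dna2 (0.0683), Pole2 (0.0986) and Pole3 (0.0940). That fit also ended the 500 nm call of Pole4 (0.128). The Pole3 call was lost as well with its probe sets averaged (0.0993) or with its probe set of largest SD (0.758). Other probe sets of Pole3 gave -0.11 and 0.04 at the 10 nm high dose and 0.21 and 0.14 at the 500 nm high dose. Tk2, the mitochondrial thymidine kinase, fell (-0.86 ± 0.17 and -0.54 ± 0.17). Its 500 nm call was lost without untreated replicate 1 (0.0711), 2 (0.0774) or 3 (0.0847) or 500 nm high dose replicate 1 (0.180), and under every scaling but the deposited one. The histone chaperone genes Asf1a and Asf1b fell at the 10 nm high dose (-0.47 ± 0.09 and -0.44 ± 0.08) and gave -0.16 ± 0.09 and -0.12 ± 0.08 with 500 nm silica. Both 10 nm calls were lost with arrays scaled to one SD. They were also lost in a fit on the compared arrays alone (0.0886 and 0.0938), as was the 500 nm call of Tk2 (0.104).

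**Figure D5:**
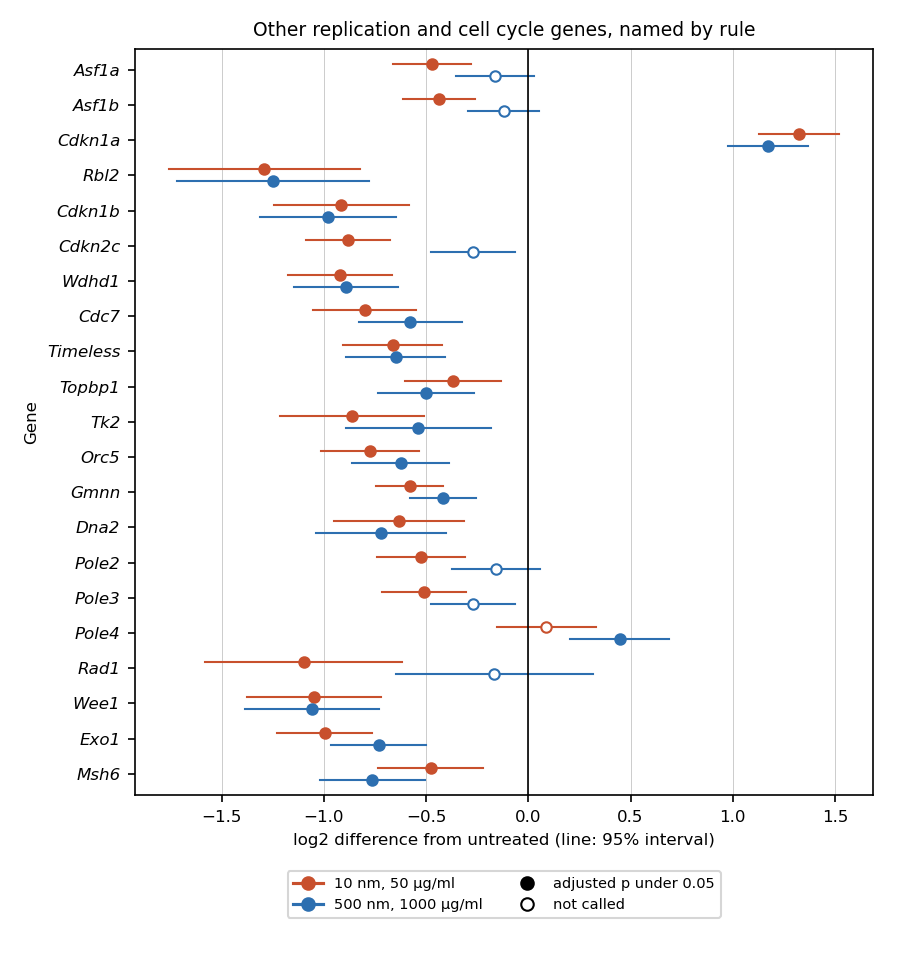
Log2 difference from untreated cells of 21 further replication and cell cycle genes at the 10 nm high dose (red) and the 500 nm high dose (blue); lines are 95% intervals of the fit, and filled points have an adjusted p under 0.05. Cdkn1a lies near 1.33 and 1.17, Rbl2 near -1.29 and -1.25, and Pole4 is the other gene with a filled point right of 0.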

How the data were processed

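Total RNA was copied with an oligo-dT primer into biotin-labelled RNA, so probes near 3′ ends are favoured. The authors deposited log10 values, 1 for each probe set on each array, obtained with RMA per the submitters' processing notes; no version is given in the sources used here. The log base was read from the values (0.641 to 4.34, whose top is 22019 intensity units in base 10), so every fold change rests on base 10. Values were multiplied by 3.32 to give log2 signal (2.13 to 14.43). Of 22690 probe sets, 64 were controls, 691 had several symbols, and 20380 with 1 symbol gave 12393 genes. Arrays have no read depth, and their number limits the precision.

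Groups came from the sample titles. Tests used limma 3.58.1 (R 4.3.3) through lmFit and eBayes (group as the one factor with no replicate term, all 21 arrays sharing one spread, 14 residual and 4.80 prior degrees of freedom, median residual SD 0.184), two-sided, adjusted by Benjamini-Hochberg over all genes of each of 12 comparisons. Matplotlib 3.10.9 (Python 3.11.15) drew the figures, and the tests were tried on simulated data. The genes, lists and tests were chosen with earlier results of these data known. Array values are given for up to 12 members of largest change that passed at a high dose and for those that passed between sizes. Also named are other called members, the smallest p of each role among the rest, up to 4 further genes per role, and other probe sets that differ in sign or by over 0.5; other probe sets that were called, and second probe sets of the further genes, were added after their values were seen. Alternatives were 3 other scalings, array weights, a replicate term, a filter on genes under the 25th percentile, other choices of probe set, a spread that follows signal, a fit on the compared groups alone, and leaving out arrays. Promoter letters came from RefSeq (GRCm38.p6), which was used for no other coordinates.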

Additional observations from a re-analysis of the deposited data

Results flagged for a closer look

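A test of the difference between the 2 particle sizes passed for these genes with the values as deposited. Between the 10 nm mid and the 500 nm high dose, which match in nominal area, Cdc6 differed by 0.44 (10 nm minus 500 nm). Between the high doses, which do not match in area, Cdc6 differed by 0.47, Orc2 by -0.41, Cdc45 by -0.47, Gins1 by -0.41, Rfc3 by -0.75 and Rfc4 by -0.41. Rfc4 was the one gene whose high dose difference stayed called without each single array, and 0 genes stayed called both so and under all 4 scalings. The Cdc6 call of 0.44 was lost without any of the 6 arrays compared, and a fit on the groups compared alone called 0 genes in both comparisons.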

How the results depend on the processing

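Log2 values rest on base 10, 3 arrays a group limit the precision, and dim probe sets such as that of Tyms lie close to background. The lowest and highest counts of called genes when arrays were left out were 0 and 1 at the 10 nm low dose, 1 and 5 at the 10 nm mid dose, 2 and 15 at the 10 nm high dose, 0 and 0 at the 500 nm low dose, 1 and 2 at the 500 nm mid dose, 3 and 8 at the 500 nm high dose, 0 and 0 between the low doses, 0 and 1 between the 10 nm mid and 500 nm high dose, 0 and 6 between the high doses, 1 and 7 for the 10 nm slope, 2 and 5 for the 500 nm slope and 2 and 12 for any difference among groups. The 15 came without 10 nm high dose replicate 1; without untreated replicate 1 or 2 that count was 7, and without 10 nm high dose replicate 3 it was 6. With both high dose replicate 3 arrays left out, a setting chosen after seeing the data, 1 gene differed between the high doses and 2 had a 10 nm slope. The shares of all genes called without these arrays are not given here, so a shift in a count cannot be read as particular to the list.

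Array weights gave 6, 11 and 19 genes at the low, mid and high 10 nm dose and 1, 5 and 17 with 500 nm silica, 1 between the low doses, 9 between the 10 nm mid and 500 nm high dose, 15 between the high doses, 13 and 11 slopes (10 nm first) and 23 for any difference. Of all genes they called 9.84%, 25.4% and 50.5% with 10 nm and 2.99%, 18.7% and 39.2% with 500 nm silica from low to high, 1.1%, 18.2% and 38.5% between the sizes in the same order, 33.3% and 27% by slope and 63.1% for any difference. Scaled to one SD, arrays gave 1 at the 10 nm mid and 5 at the 10 nm high dose, 0 between the 10 nm mid and 500 nm high dose, 1 slope with 10 nm silica and 5 for any difference; the members' median then turned to 0.0088 and 0.018 at the high doses, 10 nm first. Centring gave 2 at the 10 nm mid dose, 0 between the 10 nm mid and 500 nm high dose, and 1 and 3 slopes. Quantile normalization gave 6 at the 10 nm high dose and 0 between the 10 nm mid and 500 nm high dose. A fit on the groups compared alone gave 1 at the 10 nm mid, 1 at the 10 nm high and 3 at the 500 nm high dose, 0 between the 10 nm mid and 500 nm high dose, 0 between the high doses and 1 slope with 10 nm silica. The probe set of largest SD gave 6 at the 10 nm high dose, 3 between the high doses and 2 slopes with 10 nm silica, and turned Orc2 to 0.093 at the 10 nm high dose (adjusted p = 0.815), 0.18 between the high doses (0.768) and 0.047 for the 10 nm slope (0.740). Averaged probe sets gave 3 slopes with 10 nm silica, and leaving out dim genes gave 2 at the 500 nm mid dose. A spread that follows signal moved no count by over 1.5 times. Except for array weights, the shares of all genes called in these settings are not given here. The cause of these shifts was not tested. Over the named genes, 1250 of the other values kept direction and side of the threshold, 330 lost the call and 3 reversed.

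Replicate numbers do not pair the arrays by the labels. Of 63 pairs of the same number, 51 had deviations correlated over 0.1 (range -0.24 to 0.76, median 0.46). Of 126 pairs of different numbers, 31 had deviations correlated over 0.1 (range -0.72 to 0.65, median -0.26). In all, 15 of 21 arrays correlated best with their own number. With a replicate block the counts were 2 at the 10 nm low, 17 at the 10 nm high, 1 at the 500 nm low, 3 at the 500 nm mid and 15 at the 500 nm high dose, 11 between the high doses and 13 slopes with 10 nm silica, where 1.73%, 36.7%, 0.888%, 5.73%, 27.7%, 16.7% and 22.8% of all genes were called.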
